A study of Mus musculus with 8 samples.

Results

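The probes described here are those whose only name on the array is a genomic interval, nearly always with a strand suffix, such as chr11:96175764-96176029_F, in place of a transcript accession. They were selected on measured signal: a coordinate-named probe was kept where the scanner software marked its spot as well above background on 2 or more of the 8 arrays. Of 16194 such probes, 9017 (55.7%) met the rule, which is 16.2% of the 55681 probes of the array. The files give an interval and nothing else for these probes. Whether each one reads a noncoding transcript was therefore not checked, and they are called coordinate-named probes, or members, throughout. Intervals are in the mouse build mm9 (NCBI37), as the scanner headers state, and no gene, exon or intron annotation of that build was used here.

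Long noncoding RNAs are transcripts with no long reading frame, many of them spliced and polyadenylated like messenger RNA. Some act where they are made, by recruiting chromatin regulators or by the act of transcription itself, and others work elsewhere in the nucleus or in the cytoplasm. As a class they are known for lower levels and narrower tissue ranges than messenger RNAs, and several are induced when neuronal precursors differentiate.

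The study compared N18TG2, a mouse neuroblastoma line, with its ChAT-expressing 2/4 clone, each untreated or given all-trans retinoic acid (RA), a vitamin A derivative that differentiates neuroblastoma cells. ChAT, choline acetyltransferase, makes acetylcholine, and the title of the series sets lamin A/C beside ChAT in this differentiation. There were 4 groups of 2 one-colour arrays: parental untreated, parental RA, clone untreated and clone RA. The RA dose was 1 µM, in medium holding 1% serum, for a time the labels do not state. Growth medium held 10% serum and the medium of the untreated arrays is not given, so RA and serum may have changed together. G418, at 200 µg/mL, was used to maintain the clone and goes with the line. The 2/4 line is 1 clone, so a line difference is that of 1 clone from its parent, and the promoter that drives ChAT is not stated. Nothing in the labels says that arrays of 1 group are separate cultures, so p-values measure the spread between these samples, which may be technical.

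All arrays lay on 1 slide. Row 1 held parental RA and clone untreated, and row 2 held parental untreated and clone RA, so slide row cannot be told apart from RA within a line, from the line within a treatment, or from the difference between the RA responses. Slide row cancels in the average of both line differences and in the average of both RA differences. Parental arrays lay in slide columns 1 and 3 and clone arrays in columns 2 and 4. Slide column therefore cannot be told apart from the line in any line difference, the average included. The array labelled SAMPLE 6, which is clone RA replicate 1, stood apart: 63.6% of coordinate-named probes were well above background there against 29.4% to 52.4% on the other 7, and 29 coordinate-named spots were marked as outliers against 1 to 7. Counts of calls that use clone RA are given with and without it. Among the 87 members selected by the naming rule, 47 of 54 calls for the line with RA, 11 of 30 for RA in the clone, 55 of 57 for the average line difference and 34 of 37 for the average RA difference remained without it. The probe of Chat read -2.63 and -4.57 in parental untreated and -3.73 and -2.71 in clone untreated, values that overlap. With RA it read -3.21 and -5.06 in the parental line and 1.10 and -2.57 in the clone. Both clone values were the higher ones there, but they lay far apart. The line difference with RA, 3.40 ± 1.29 (SE) on the log2 scale, was not called (limma adjusted p = 0.112). The probe therefore does not check the label of the clone. All 12 adrenergic neuroblast markers were well above background on all 8 arrays. The extraction text names hippocampus, and 3 of 11 hippocampal neuron markers were well above background on all 8 arrays and 4, the neuronal genes Calb1, Neurod2, Neurod6 and Prox1, on none. Of the Schwann cell and glial, blood vessel and microglial, and fibroblast markers, 2 of 8, 4 of 8 and 2 of 6 were above background on all 8 arrays.

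The 16194 probes came from 4610 intervals of 62 to 7128487 bases, with a median of 10676. Most intervals were read more than once: 690 had 1 probe, 1810 had 3, 975 had 5 and 147 had 10, the most of any. Probes of 1 interval share their target and are not independent. At least 1 member was found in 3681 intervals, every probe was a member in 1535, and 929 had none. The suffix marks the strand, forward (F) or reverse (R). On F, 4352 of 8171 probes (53.3%) were members, and on R, 4657 of 8010 (58.1%). A further 13 probes, 8 of them members, carry no suffix. The member share ran from 46.1% on chromosome 9 to 64.6% on chromosome 5.

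The rule leaves out 7177 coordinate-named probes, of which 4181 were well above background on no array and 2996 on 1 array. That 1 array was SAMPLE 6 for 2335 of them (77.9%), and the next most frequent array accounted for 276. Levels are given as log2 of the background-subtracted signal minus the 75th percentile of the same array, so that 0 is the upper quartile of all spots. The 914 members just inside the rule, on exactly 2 arrays, had mean levels of -7.20 to -5.15 with a median of -6.12. Probes just outside it, on 1 array, ran from -7.81 to -5.28 with a median of -6.90. With SAMPLE 6 left out, the rule kept 8443 probes and 574 members were lost. No member spot was saturated, and 34 members lacked 1 array because of an outlier spot.

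Most members were dim. Their mean level had a median of -4.09, against 0.02 for the 19858 probes named by an NM_ accession (curated RefSeq messenger RNAs) that met the same rule, and 91.1% of members lay below the 75th percentile of their arrays against 49.8% of those NM_ probes. Detection on all 8 arrays was reached by 4299 members. Between arrays the median level of members ran from -4.29 to -3.96 on 7 arrays and was -2.92 on SAMPLE 6, while NM_ probes had medians between -0.03 and 0.16 on all 8. SAMPLE 6 was thus high for dim probes as a class, and a difference with clone RA on 1 side carries that offset. Outside chromosome 18, whose members were counted and are not named here, the 6 members with the highest mean level were read at 6.76 to 8.86 on every array. They lay at chr11:22681800-22707775_R, chr7:108209996-108216032_R, chr17:17481706-17482457_R (2 probes), chrX:138967807-138968413_R and chr17:48068261-48087905_F.

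Detection itself separated the groups for some members. All 4 clone arrays and no parental array were well above background for 108 members, and the reverse held for 17. All 4 RA arrays and no untreated array were above background for 54, the reverse for 3, while 175 members were above background on both clone RA arrays alone, 53 on both parental RA arrays alone, 13 on both clone untreated arrays alone and 2 on both parental untreated arrays alone. Members that entered through the group where they are high had to differ, so these counts describe the rule and support nothing. Where a group had no array well above background, only a bound is given below, as "at least" so many fold: the mean of the brighter group against, per array, the higher of the dim probe's own signal and the lowest signal well above background. The adjusted p printed beside a bound is that of the fit to the measured values. For a member above background in 1 group or 1 line alone it shares the selection just described and is given as a description, with nothing rested on it.

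The comparison of the lines asks which coordinate-named probes set the 2/4 clone apart from its parent. Calls required an adjusted p (Benjamini-Hochberg) under 0.05 in limma over all 36638 probes that met the detection rule. In the average of both line differences, 1081 members were higher in the clone and 380 lower, that is 12.0% and 4.21% of members against 15% and 10% of all probes tested. Without RA, 274 were higher and 85 lower, against 5.11% and 2.94% of all probes, and with RA, 790 were higher and 290 lower, against 11.5% and 8.33%. The members thus held smaller shares of calls than the array as a whole in each direction. The median line difference over members was 0.29 in the average, against 0.14 over all probes tested.

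The split between higher and lower depended on the scaling and on SAMPLE 6. Of the members called in the average line difference, 74.0% were higher, and 54.9% were higher after quantile normalization (715 higher and 588 lower), while the share over all probes called went from 59.9% to 51.3%. With RA the share was 73.1%, and 49.0% after quantile normalization (526 higher and 547 lower), against 57.9% and 49.1% over all probes called. After normexp background correction 224 members were higher and 193 lower in the average, against 2514 and 2562 of all probes tested. Quantile normalization moved the median of all probes from 0.14 to -0.05 in the average and from 0.14 to -0.17 with RA. Without SAMPLE 6, 876 members were higher and 543 lower in the average, against 13% and 9.75% of all probes, and 449 and 357 with RA, against 7.78% and 6.38%. Among the 4299 members on all 8 arrays, fitted alone with other probes of that kind, 572 were higher and 348 lower. Of all 25022 probes in that fit, 4093 were higher and 3845 lower. Higher calls were thus 62.2% of the calls of members and 51.6% of those of all probes.

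Clone-high members were found at 3 reverse-strand intervals of chromosome 10. At chr10:118427606-118430070_R both probes were well above background on all 4 clone arrays and on no parental array. A_30_P01025844 read -0.65 and 0.21 in clone untreated, -2.17 and -2.05 in clone RA, -6.74 and -7.73 in parental untreated and -7.41 and -7.11 in parental RA. Every clone value lies above every parental value. The clone exceeded the parental line at least 29.2-fold without RA (limma adjusted p = 0.000484, n = 2 arrays per group) and at least 13.5-fold with RA (adjusted p = 0.00079, and 0.00196 without SAMPLE 6). The second probe, A_30_P01026564, gave bounds of 16.2-fold and 8.7-fold.

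At chr10:109653855-109858347_R, an interval of 204493 bases, all 3 probes were called in both line differences. A_30_P01032510 read -1.79 and -1.59 in clone untreated and -0.29 and -0.66 in clone RA, against -4.53 and -4.97 in parental untreated and -6.74 and -6.43 in parental RA, where it was not above background. The groups of the lines do not overlap, and the clone was at least 41.9-fold higher with RA (adjusted p = 0.00016, and 0.000385 without SAMPLE 6). At chr10:120058696-120076196_R both probes were seen only in the clone, with bounds of 9.15-fold and 9.91-fold without RA, whereas both probes of the same interval on strand F were well above background on no array.

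The run of neighbouring intervals with the most clone-high members lay on chromosome 7. Intervals of 1 strand within 50 kb of each other, each with a member called in the same direction, were joined into runs, a step chosen after values were seen. The run chr7:68849401-69131056 on strand R joined 8 intervals, several of which overlap, with 20 members, and 18 of them were higher in the clone in the average, 17 without SAMPLE 6. A_30_P01017899, in chr7:69088784-69089906_R, read -4.18 and -3.62 in parental untreated, -3.92 and -3.98 in parental RA, -1.09 and -0.65 in clone untreated and 0.57 and 0.55 in clone RA. No parental value reaches a clone value, and the parental groups lie together. The clone was higher by log2 3.77 ± 0.22 (SE) in the average, 13.6-fold (adjusted p = 0.000109), and by 3.76 without SAMPLE 6. The 3 probes of chr7:69117827-69127242_R were higher by 3.60 to 3.74.

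Further clone-high intervals had all their probes called. At chr19:38392796-38398771, all 5 probes of strand R were called in the average, 3 of them at log2 1.71 to 4.51 and the other 2, seen in the clone alone, at bounds of 11.8-fold and 8.27-fold. Of 4 members on strand F, 2 were called. A_30_P01021200 on strand R read -5.76 and -5.45 in parental untreated, -4.57 and -5.43 in parental RA, -1.69 and -1.15 in clone untreated and -0.37 and -0.40 in clone RA. All clone values are the higher ones, and the average difference was 4.40 ± 0.27 (adjusted p = 0.000123). At chr10:62267317-62269871_R the 3 probes were higher by 3.70 to 3.81, and at chr16:29907604-29946602_R, chosen after its values were seen, all 3 were above background on the 4 clone arrays and on no parental array, with bounds of 4.00-fold to 6.26-fold in the average.

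At chrX:50407969-50410370_R the 3 probes were higher in the clone and lower with RA. A_30_P01024529 read -3.13 and -3.43 in parental untreated, -5.06 and -4.97 in parental RA, -0.22 and 0.07 in clone untreated and -1.76 and -1.69 in clone RA. The 4 groups do not overlap, and RA values are below untreated values in each line. The line difference was 3.25 ± 0.20 in the average (adjusted p = 0.000116) and the average RA difference -1.69 ± 0.20 (adjusted p = 0.0157, and 0.0272 without SAMPLE 6). The other probes of this interval gave 3.04 and 3.21 for the line and -1.55 each for RA, all called.

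At chr4:56480568-56658018_R all 5 probes were higher in the untreated clone, 4 of them by 3.01 to 3.49 and the fifth at least 7.7-fold, and with RA the line difference was 0.99 to 1.48, with 1 of 5 called. A_30_P01020884 read -3.88 and -3.76 in parental untreated, -2.81 and -3.63 in parental RA, -0.48 and -0.17 in clone untreated and -2.03 and -2.42 in clone RA. The clone fell with RA by 1.90 ± 0.36 on the log2 scale (adjusted p = 0.0484, and 0.0976 without SAMPLE 6), and the difference between the RA responses of the lines was -2.50 ± 0.52 (adjusted p = 0.153). Of 5 probes on strand F of the same interval, 3 were members and none of them was called in any line difference.

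Fewer members were higher in the parental line. At chr12:50490638-50508093_F, A_30_P01027901 read -1.24 and -1.78 in parental untreated and -1.75 and -2.15 in parental RA, against -7.92 and -6.79 in clone untreated and -7.11 and -8.40 in clone RA. It was above background on all 4 parental arrays and on no clone array. The clone was at least 15.0-fold lower in the average (adjusted p = 0.000165), the second member of the interval, A_30_P01032159, at least 10.8-fold, and the third probe was above background on no array. At chr7:49833703-49847915_R, A_30_P01026571 was likewise seen in the parental line alone and was at least 18.3-fold lower in the clone with RA (adjusted p = 0.000401, and 0.000213 without SAMPLE 6).

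At chr17:71183978-71185384_F the 3 probes were lower in the clone by 2.22 to 2.65 on the log2 scale in the average. A_30_P01021359 read -1.98 and -2.33 in parental untreated, -1.04 and -1.19 in parental RA, -3.45 and -3.07 in clone untreated and -4.36 and -4.56 in clone RA. Clone values are the lower ones throughout, and the gap is wider with RA. The line difference was -1.10 ± 0.30 without RA (adjusted p = 0.076) and -3.35 ± 0.30 with RA (adjusted p = 0.000849, and 0.00241 without SAMPLE 6). The test of the change in this gap, the difference between the RA responses, gave -2.24 ± 0.42 (adjusted p = 0.129).

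Some line differences rested on 1 probe of an interval. A_30_P01019010, at chr11:96111499-96126224_R, read 1.26 and 0.38 in parental untreated, -1.10 and -0.90 in parental RA, -3.45 and -3.58 in clone untreated and -2.47 and -3.30 in clone RA. The untreated clone was lower by 4.33 ± 0.42 on the log2 scale (adjusted p = 0.00175). The other members of that interval, A_30_P01030733 and A_30_P01031238, had untreated line differences of 0.18 (adjusted p = 0.897) and 0.79 (adjusted p = 0.807). A_30_P01021929, at chr9:118291593-118324230_F, had values near those of A_30_P01019010 on each array and an untreated line difference of -4.06 ± 0.43 (adjusted p = 0.0026). At chrX:90997595-91009570_R, A_30_P01022594 was at least 27.5-fold lower in the untreated clone, while 7 of the other 8 members of the interval were called higher in the average, at 0.91 to 2.30.

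Line differences without and with RA share no array. The fit gives both the same estimate of a probe's spread, however, so their calls are not independent. They are set side by side as a description. Of 274 members higher in the untreated clone, 196 (71.5%) were also higher with RA, which is 24.8% of the 790 higher with RA. Over all probes tested the shares were 77.1% and 34.3%. Of 85 lower without RA, 54 (63.5%) were lower with RA, which is 18.6% of 290, against 73.2% and 25.8% of all probes. Calls in opposite directions were found for 3 members higher and 1 lower without RA. Leaving out SAMPLE 6, the shared calls were 179 of 378 and 449 higher, and 91 of 157 and 357 lower. These are 47.4% and 39.9% of the higher and 58.0% and 25.5% of the lower members, against 60.3% and 46.9%, and 65.6% and 39.4%, of all probes.

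The levels of markers of other cells were read beside the line difference. Of 6 fibroblast markers, 4 met the detection rule and 2 of these were higher in the clone in the average, the collagen genes Col1a1 by 2.46 ± 0.23 (adjusted p = 0.000629) and Col1a2 by 3.16 ± 0.39 (adjusted p = 0.00181). Pdgfra and Dcn were tested and not called in the fit of all 8 arrays. Their differences without SAMPLE 6 were 0.58 and -1.14, and Dcn was the fibroblast marker called lower in that fit. Lum and Thy1 were above background on no array. The mean level of the list was -4.36 in parental untreated, -4.89 in parental RA, -3.81 in clone untreated and -3.52 in clone RA, with single arrays from -4.90 to -3.23. Their part in the result was not tested. Blood vessel and microglial markers had 1 of 5 tested higher, glial markers 2 of 6 lower, and hippocampal markers 3 of 5 higher. Adrenergic neuroblast markers had 2 of 12 higher and 3 lower. These counts stand against 15% higher and 10% lower of all probes tested. In the neuroblast list the most negative line differences without SAMPLE 6 were those of Insm1, Dbh and Gata3, at -8.21, -4.79 and -2.50. The most positive were those of Chga and Gata2, at 1.72 and 1.15. Without SAMPLE 6, against 13% and 9.75%, the fibroblast list had 2 higher and 1 lower, the hippocampal list 1 higher, and the other 3 lists the same counts.

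The comparison of RA with untreated asks which members changed with differentiation treatment. In the average of both lines, 236 members were higher with RA and 18 lower, that is 2.62% and 0.2% of members against 2.3% and 1.64% of all probes tested. In the clone 159 were higher and 28 lower, against 1.66% and 1.17% of all probes. In the parental line 24 were higher and 1 lower, against 0.36% and 0.308%. The median RA difference over members was 0.30 in the average, against 0.08 over all probes.

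These counts are not stable to the choice of arrays. Without SAMPLE 6, 129 members were higher and 33 lower in the average, against 1.36% and 1.2% of all probes, and 17 and 8 in the clone, against 0.246% and 0.287%. No member was called in the average without parental RA replicate 1, either parental untreated array or either clone untreated array, where 1173 to 1564 members had an unadjusted p under 0.05. None was called in the parental line without any 1 of its 4 arrays or of the 2 clone untreated arrays (525 to 951 at an unadjusted p under 0.05, a range that includes the fit with no filter on dim probes), and 68 were called without either clone RA array. In the clone, none was called without either clone untreated or either parental untreated array, 22 without either parental RA array, and 1345 without clone RA replicate 2. In the average and in the clone these ranges of counts include the fits with no filter on dim probes, and in the clone also the fit of its own groups alone, where 927 to 1518 had an unadjusted p under 0.05. After quantile normalization, which moved the median of all probes in the clone from 0.08 to -0.14, 82.1% of the members called in the average were higher (115 higher and 25 lower) against 92.9%, and in the clone 71.6% (96 and 38) against 85.0%. Over all probes called the shares went from 58.4% to 47.2% in the average and from 58.8% to 48.8% in the clone, so that lower calls were the more frequent ones there after quantile normalization.

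Outside chromosome 18, the largest RA difference among members above background on all arrays compared lay at chr11:96175764-96176029_F, an interval of 266 bases read by 3 probes. A_30_P01019818 read -4.26 and -4.31 in parental untreated, 1.61 and 0.53 in parental RA, 0.20 and 0.25 in clone untreated and 2.38 and 1.66 in clone RA. The parental untreated arrays are the low ones, and clone untreated lies just below parental RA. RA raised the parental level by 5.35 ± 0.43, 40.9-fold (adjusted p = 0.0135). Without RA the clone lay above the parental line by 4.51 ± 0.43, 22.8-fold (adjusted p = 0.00172).

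In the clone, the RA difference of A_30_P01019818 was 1.79 ± 0.43 (adjusted p = 0.0805, and 0.241 without SAMPLE 6), and the line difference with RA was 0.95 ± 0.43 (adjusted p = 0.173, and 0.486 without SAMPLE 6). The difference between the RA responses was -3.56 ± 0.61 (adjusted p = 0.117), so unequal responses were not shown. The other 2 probes of the interval, A_30_P01022855 and A_30_P01026003, gave RA differences of 5.13 and 5.25 in the parental line and 1.76 and 1.02 in the clone. Each was well above background on 1 of the 2 parental untreated arrays.

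Mouse chromosome 11 also carries the HoxB cluster, a row of homeobox genes that RA is known to induce in order along the cluster. The place of the interval relative to those genes was not determined here. Probes of Hoxb3, Hoxb4 and Hoxb5, transcription factor genes of axial patterning, had the same order of groups. A_55_P2024993, for Hoxb4, read -6.35 and -5.61 in parental untreated, 1.09 and 0.65 in parental RA, -0.54 and -0.21 in clone untreated and 2.14 and 1.62 in clone RA, and rose with RA in the parental line at least 62.2-fold (adjusted p = 0.00679). The bounds of Hoxb3 (A_52_P312467) and Hoxb5 (A_51_P436342) were 6.48-fold and 12.4-fold, both called. A second Hoxb3 probe, A_51_P460643, had a parental RA difference of 0.99 ± 0.58 (adjusted p = 0.551). Hoxb6 (A_51_P232207) had another order, with clone untreated, at -2.22 and -2.32, above parental RA, at -3.80 and -2.81. Its parental RA bound of 3.32-fold was not called (adjusted p = 0.0802). In the clone it rose with RA by 2.61 ± 0.38 (limma adjusted p = 0.0315), and its average RA difference was called (adjusted p = 0.0153). Hoxb2 (A_52_P15300) was above background on the 4 RA arrays alone, with neither untreated group above background. Its parental RA bound of 1.35-fold was not called (adjusted p = 0.105). The fit called it higher with RA in the clone and in the average (limma adjusted p = 0.0430 and 0.0212). Hoxb1, Hoxb7, Hoxb9 and Hoxb13 were above background on no array.

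Members that rose with RA in the parental line also lay on chromosomes 5 and 8. At chr5:22905597-22939154_R, A_30_P01025008 was above background on the 4 RA arrays alone, at -2.76 and -2.59 in the parental line and -3.70 and -3.94 in the clone. It was at least 5.34-fold higher with RA in the parental line (adjusted p = 0.0179), and the clone bound was 3.54-fold (adjusted p = 0.0429, and 0.123 without SAMPLE 6). A_30_P01031404, at chr5:35893909-35899497_R, rose by 3.63 ± 0.40 in the parental line (adjusted p = 0.0242), and the clone bound was 3.69-fold (adjusted p = 0.0315, and 0.0632 without SAMPLE 6). The other 2 probes of that interval had parental RA differences of 0.16 and 1.03, not called.

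At chr8:124397412-124398022_R, A_30_P01024275 read -3.87 and -3.65 in parental untreated, -1.05 and -1.28 in parental RA, -1.55 and -1.84 in clone untreated and -2.39 and -2.66 in clone RA. RA values are higher in the parental line and lower in the clone, and the lines change order. The RA difference was 2.60 ± 0.29 in the parental line (adjusted p = 0.0248), while the clone had -0.83 ± 0.29 (adjusted p = 0.175). The difference between them was -3.43 ± 0.41 (adjusted p = 0.0647). Of 5 probes on strand R of the overlapping interval chr8:124355710-124401160, A_30_P01025936 and A_30_P01028489 were called in the parental RA difference, at 2.62 and 2.41. On strand F of that interval 4 of 5 were higher in the clone in the average, at 1.31 to 1.79.

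In the clone, the largest RA difference among members outside chromosome 18 above background on all arrays compared was at chr16:29804864-29815614_R. A_30_P01019258 read 1.05 and 1.96 in clone untreated, 5.15 and 5.67 in clone RA, 1.33 and 1.61 in parental untreated and 2.95 and 2.00 in parental RA. Both clone RA arrays stand above all others. The clone rose by 3.90 ± 0.46, 14.9-fold (adjusted p = 0.0255, and 0.0447 without SAMPLE 6), and the parental difference was 1.00 ± 0.46 (adjusted p = 0.428). The difference between these responses was 2.90 ± 0.66 (adjusted p = 0.174).

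At chr1:163508244-163586072_R all 5 probes were higher with RA in the clone, by 2.42 to 3.49, and none of the 5 was called in the parental line, at -0.03 to 0.73. A_30_P01028357 read -5.25 and -4.71 in clone untreated, -1.71 and -1.27 in clone RA, -5.53 and -5.16 in parental untreated and -5.48 and -5.27 in parental RA. Clone RA is the high group and the other 3 lie together. The clone rose by 3.49 ± 0.34 (adjusted p = 0.0197, and 0.0384 without SAMPLE 6), and the responses of the lines differed by 3.52 ± 0.48 (adjusted p = 0.0822). Without SAMPLE 6, 3 of the 5 were called in the clone. The 5 probes of strand F of this interval had clone RA differences of 0.15 to 1.13, none called.

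At chr2:153163620-153170845 all 9 probes of strand R were higher with RA in the clone, 8 of them by 1.78 to 2.46 and A_30_P01028722, above background on the 4 RA arrays alone, at least 8.25-fold. All 9 were also called in the average. Without SAMPLE 6, none of the 9 was called in the clone, at adjusted p = 0.0662 to 0.112, and 2 in the average. Of 7 members among the 10 probes of strand F, 1 was called in the average. A_30_P01017538 on strand R read -3.84 and -3.69 in parental untreated, -2.37 and -3.18 in parental RA, -4.02 and -4.15 in clone untreated and -1.58 and -1.66 in clone RA. RA values exceed untreated values in each line, and its average RA difference was 1.72 (adjusted p = 0.022, and 0.0364 without SAMPLE 6).

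Members also rose with RA in both lines while staying lower in the clone. At chr9:118059348-118079494_F, an interval chosen after its values were seen, A_30_P01032339 read -1.59 and -1.41 in parental untreated, 0.79 and -0.18 in parental RA, -3.89 and -3.89 in clone untreated and -1.54 and -2.04 in clone RA. The average RA difference was 1.95 ± 0.28 (adjusted p = 0.0225, and 0.0364 without SAMPLE 6) and the average line difference -2.24 ± 0.28 (adjusted p = 0.00193). All 3 probes of the interval were called in both, at 1.77 to 1.95 and -2.24 to -2.02, and 2 of 3 kept the RA call without SAMPLE 6. At chr17:56687541-56694616_R all 5 probes rose by 1.78 to 2.30 and were lower in the clone by 1.20 to 1.77 on the log2 scale, with the same 5 called without SAMPLE 6.

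Few members fell with RA. At chr17:32213027-32228368_R, A_30_P01026762 read 0.73 and 0.68 in parental untreated, -0.46 and -0.80 in parental RA, 1.46 and 1.73 in clone untreated and -1.13 and -1.20 in clone RA. Untreated values lie above RA values in both lines. The average RA difference was -2.04 ± 0.20 (adjusted p = 0.0119, and 0.0192 without SAMPLE 6). A_30_P01020734 of the same interval fell by 1.79 on the log2 scale, and the third probe, A_30_P01018572, had a difference of 0.45 (adjusted p = 0.26).

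On chromosome 5 the 2 clone untreated arrays disagreed. At chr5:15146475-15170100_F, A_30_P01031842 read -1.59 and -0.97 in parental untreated, -5.88 and -7.10 in parental RA, -0.20 and -3.70 in clone untreated and -7.16 and -7.93 in clone RA. It was above background on the 4 untreated arrays and no RA array, and was at least 16.9-fold lower with RA in the average (adjusted p = 0.0221, and 0.0272 without SAMPLE 6). A_30_P01029005, at chr5:14943275-14944205_F, showed the same gap between the clone untreated arrays, at -0.34 and -3.98. Its average RA difference had a bound of 14.8-fold lower (adjusted p = 0.0393, and 0.0424 without SAMPLE 6).

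RA responses of the lines share no array either, but they too share the estimate of the spread. Of 24 members higher with RA in the parental line, 7 (29.2%) were also higher in the clone, which is 4.4% of the 159 called there, and 19 of the 24 had a positive difference in the clone. Over all probes the shares were 21.2% and 4.59%, with 28 probes higher in both. No member was lower in both, but only 1 was called lower in the parental line and 28 in the clone, so at most 1 could be shared. Over all probes 23 were lower in both, of 113 and 427 (20.4% and 5.39%). Without SAMPLE 6, 0 of 58 and 17 members were higher in both, against 10 of 277 and 90 of all probes.

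The test of the difference between the RA responses called 1 member as higher, against 0.0382% of all probes, and 0 as lower, against 0.0191%, with 729 members at an unadjusted p under 0.05. This was A_30_P01028025 at chr5:106982442-107045717_R. It read -1.50 and -1.94 in parental untreated, -7.32 and -7.56 in parental RA, -7.69 and -7.02 in clone untreated and -7.05 and -6.92 in clone RA. The parental untreated arrays alone were above background. It was at least 17.7-fold lower with RA in the parental line (adjusted p = 0.00679) and at least 16.3-fold lower in the untreated clone (adjusted p = 0.000445). For unequal responses the fit gave adjusted p = 0.028, and 0.0468 without SAMPLE 6. No size is drawn from that fit, as 3 of the 4 groups had no array above background. Of the other 3 members of the interval, A_30_P01018142, A_30_P01020973 and A_30_P01030432, none was called in any of these comparisons, with parental RA differences of 0.13 to 0.51.

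Probes of 1 interval and strand were compared with each other where at least 2 were members, which held for 2374 intervals. In the average line difference 697 of these had a called member. All members were called in 173 (24.8%), calls went both ways in 4, and all members had the same sign in 79.8%, against 65.0% of all 2374 intervals. In the average RA difference 147 intervals had a called member, all members were called in 14 (9.52%), and signs were the same in 80.3% against 59.3% of all. Since an interval enters through a called member, its sign agreement is a description of these probes. Without SAMPLE 6, 167 of 665 intervals with a call had all members called in the line average and 9 of 98 in the RA average, and signs were the same in 74.9% against 59.1% of all, and in 61.2% against 52.9%.

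Both strands were read at 1067 intervals. Members were found on both strands in 805, on F alone in 96, on R alone in 125 and on neither in 41. In the average line difference 317 intervals had a called member on 1 strand and 50 on both, among them 22 with higher calls on both, 15 with lower calls on both and 14 with opposite calls, an interval with several calls counting under each. In the average RA difference the counts were 91 on 1 strand and 4 on both, all 4 higher. Without SAMPLE 6, 302 intervals had a line call on 1 strand and 51 on both, 12 of them with opposite calls, and the RA counts were 71 and 1. Joining neighbouring intervals as above gave 87 runs of clone-high members, with 440 called members in all and 43 runs of at least 5, and 24 runs of clone-low members with 98. RA gave 10 runs of higher members, with 42 called members. Without SAMPLE 6 there were 68 clone-high and 34 clone-low runs, with 357 and 138 called members, and 6 runs for RA, with 22.

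Neighbouring intervals on 1 strand could differ in direction. The 3 probes of chr3:145313275-145315057_F were lower in the clone in the average, 1 by 1.69 on the log2 scale and 2, seen in the parental line alone, at least 2.7-fold and 2.86-fold. The 3 probes of chr3:145269449-145298239_F were higher, 2 by 1.17 and 1.29 and the other at least 1.13-fold. These intervals were chosen after their values were seen. By chromosome, the share of members called in the average line difference ran from 12.0% on chromosome 14 to 25.6% on X, where 60 were higher and 22 lower. Over all chromosomes 16.2% of members were called, while of all probes tested 15% were higher and 10% lower. X was thus high among members, not against the array as a whole. Without SAMPLE 6 chromosome 14 was again lowest and X, at 27.5%, highest, against 13% higher and 9.75% lower of all probes. Shares of all probes by chromosome or length are not given here, so these splits describe members alone. On chromosome 17 there were 55 lower and 46 higher calls, and 76 and 43 without SAMPLE 6. Without it, lower calls were also the more frequent on chromosome 4, 59 against 38, and chromosome 9, 24 against 23, where with it higher calls were, 44 against 37 and 29 against 24. By length, 20.4% of members in the shortest of 4 length classes, up to 5176 bases, were called in the average line difference, against 14.4% to 15.5% in the other 3. Without SAMPLE 6 the shares were 18.8% and 13.4% to 16.4%.

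Coordinate-named and NM_ probes were compared at like brightness, in 4 bands with edges at the quartiles of the members' mean level (-5.31, -4.09 and -2.33). The brightest band has no upper edge, and brightness was not matched within it. In the average line difference 15.7%, 12.2%, 17.1% and 19.9% of members were called from the dimmest to the brightest band, against 29.7%, 29.0%, 34.5% and 30.9% of NM_ probes. The member share was the lower one in each band, with a mean difference of -14.83 percentage points over the 4. The spread within array pairs was close in the 3 dimmer bands: the median absolute difference was 0.79, 0.55, 0.46 and 0.40 for members and 0.75, 0.54, 0.41 and 0.31 for NM_ probes. The median size of the line difference was 0.79, 0.54, 0.47 and 0.45 against 1.01, 0.79, 0.66 and 0.53. Without SAMPLE 6 the called shares were 16.9%, 13.0%, 15.5% and 17.5% against 32.7%, 31.5%, 33.6% and 25.4%. Normexp background correction gave a mean difference of -7.85 points.

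For RA, the members' shares in the average were 1.69%, 2.80%, 2.53% and 4.26%, against 3.57%, 4.36%, 6.86% and 4.35% of NM_ probes. In the brightest band the total shares were alike and the directions were not: 3.99% of members were higher and 0.27% lower, against 1.22% and 3.13% of NM_ probes. In the 3 dimmer bands higher calls were the more frequent in both classes. Of members 1.60%, 2.62% and 2.26% were higher and 0.09%, 0.18% and 0.27% lower. Of NM_ probes 3.28%, 3.00% and 4.39% were higher and 0.29%, 1.36% and 2.48% lower. The median RA differences there were 0.48, 0.38 and 0.28 against 0.38, 0.29 and 0.18. Leaving out SAMPLE 6 gave 0.10, 0.08 and 0.06 against 0.06, 0.03 and 0.04. Without SAMPLE 6, 51 of 2255 members in that band were higher and 9 lower, against 101 and 232 of 13895 NM_ probes. No test of these differences between probe classes was made, since probes are not replicates. Brightness in the brightest band was not matched further, and NM_ probes there reached 9.09 against 8.00. Of all members 91.1% lay below the 75th percentile of their arrays, against 49.8% of NM_ probes. The NM_ probes of that band were thus the brighter set, and the directions there are compared between probes of unlike brightness. The part of brightness in that contrast was not tested.

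Long noncoding RNAs with gene names give a view of annotated transcripts beside the coordinate-named ones. Of 48 names listed, 24 were on the array and 21 met the detection rule. In the average line difference 5 were higher and 5 lower, against 15% and 10% of all probes. The higher ones were Malat1 and Neat1, which mark nuclear speckles and paraspeckles, at 2.06 ± 0.35 and 1.33 ± 0.35, the imprinted Peg13 at 2.21 ± 0.20 and Airn at 1.15 ± 0.24, and Six3os1, antisense to Six3, at 2.90 ± 0.29. The lower ones were Mirg, a microRNA host of the imprinted Meg3 region, at -2.34 ± 0.30, Pvt1 beside Myc at -1.26 ± 0.20, Ftx of the X inactivation centre at -0.88 ± 0.20, and the small nucleolar RNA hosts Snhg6 and Snhg12 at -1.46 ± 0.32 and -0.995 ± 0.25. Without SAMPLE 6, the call of Neat1 was lost, at 1.06 (adjusted p = 0.0633), and the other 9 remained.

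With RA, 1 of the 21 was higher and 1 lower in the average. Gm14207 read -3.68 and -2.97 in clone untreated, 0.36 and 1.31 in clone RA, -2.41 and -2.73 in parental untreated and -0.69 and -1.002 in parental RA, so that RA values are the higher ones in each line. Its average RA difference was 2.95 ± 0.30 (adjusted p = 0.0133). Dubr was lower, at -1.16 ± 0.22 (adjusted p = 0.0412). Both calls remained without SAMPLE 6, at adjusted p = 0.0113 and 0.0423. The median difference over the list was 0.08 for the line and 0.23 for RA, against 0.14 and 0.08 over all probes tested.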

How the data were processed

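Total RNA of 8 samples was labelled with Cy3 by linear amplification and hybridised to mouse design 028005. The label text describes the input as poly A+ RNA. The deposited scanner tables hold intensity values: per the file headers, the authors extracted them with Feature Extraction 10.7.3.1 against build mm9. The deposited series table holds log2 values, which equal the log2 scanner signal minus 1 constant per array, with a largest departure of 1.68e-06. Its scale is thus that of log2 signal, its medians ran from -4.454 to -2.896, and it is not centred by gene.

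Here log2 of the processed signal was taken minus the 75th percentile over non-control spots. Outlier spots were left out and spots of a probe averaged. The 36638 probes well above background on at least 2 arrays were fitted with 1 mean per group in limma 3.58.1 (R 4.3.3), on 4 residual and 2.84 prior degrees of freedom. Adjusted p-values are Benjamini-Hochberg over all probes tested, and ± in the text is a standard error. Depth is not defined for arrays: 2 arrays per group limit the precision. The fit was tested on simulated data.

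Members and lists were chosen with earlier results of these data known. Members named are, per comparison, up to 6 each way with the largest differences on probes above background on all arrays compared, up to 4 with the largest bounds, the 6 brightest, and up to 6 intervals with a further probe for each average. Members on chromosome 18 were counted and are not named, a rule that does not depend on their values. Intervals outside this rule are marked as chosen after their values were seen, and so are further probes of a named interval. Gene names come from RefSeq accessions. No probe sequence was used here.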

Additional observations from a re-analysis of the deposited data

Results flagged for a closer look

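The difference between the RA responses of the lines was called for 1 member, A_30_P01028025 at chr5:106982442-107045717_R, at 6.09 on the log2 scale (limma adjusted p = 0.028). It was above background on both parental untreated arrays and on no other array, so this fitted value depends on signal near background and is not an estimate of size. The member met the detection rule through those arrays alone. Its adjusted p shares that selection, and nothing is rested on it. The call remained without SAMPLE 6. It was lost when any 1 parental array or any 1 clone untreated array was left out. Slide row cannot be told apart from this difference.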

How the results depend on the processing

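Counts are of members called, with the value reported above in brackets. Normexp background correction, run on median spot and background signals, gave 49 for the line without RA (359), 324 with RA (1080), 1 for RA in the parental line (25), 29 in the clone (187), 0 for the difference of responses (1), 417 for the average line difference (1461) and 20 for the average RA difference (254). It also moved the gap to NM_ probes from -14.83 to -7.85 points, and the median of all probes by over 0.1 in several comparisons (line without RA 0.13 to -0.22, RA in the parental line 0.07 to -0.25). With no filter on dim probes the counts were 114, 539, 0, 0, 0, 793 and 0 in the same order. With 1 probe per name, which tests fewer probes, they were 148 and 437 for the line, 14 and 105 for RA, and 568 and 147 for the averages. Fitting the groups compared alone gave 391 for the line with RA, 13 and 0 for RA. The rule applied to 7 arrays, without SAMPLE 6, an alternative chosen after seeing the data, gave 587 for the line without RA, 99 and 27 for RA, and 2 for the difference of responses. A floor at the detection limit gave 80, 378, 90 and 422 for RA in the parental line and the clone, the difference of responses and the average. A trended and robust spread gave 73, 287, 19 and 394. Probes above background on all 8 arrays gave 65 for RA in the parental line, 17 for the difference and 920 for the average line difference. Quantile normalization gave 140 for the average RA difference. The difference of responses gave 0 calls after quantile normalization, 0 with slide side as a block and 2 from the deposited series values. The counts of 0 for the difference of responses came with 252 to 896 members at an unadjusted p under 0.05.

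Leaving out 1 array in turn gave 64 to 535 for the line without RA, 502 to 2284 with RA, 0 to 68 for RA in the parental line, 0 to 1345 in the clone, 0 to 261 for the difference of responses, 766 to 2729 for the average line difference, 0 to 1288 for the average RA difference and -15.07 to -11.43 points for the gap. The highest counts with RA came without clone RA replicate 2. The lowest for the untreated line difference came without clone untreated replicate 2. A lone array was assumed to vary like the other groups. Of the named members' results under all alternatives, 1428 kept direction and call, 571 lost the call and 0 reversed. The labels carry no replicate numbers, so samples were paired by the side of the slide alone. With slide side as a replicate block the counts were 414 and 1245 for the line, 18 and 204 for RA, 0 for the difference of responses and 1682 and 258 for the averages. Members near background have the widest spread within pairs, which limits what their differences can show.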
